A study of Mus musculus with 1989 samples.

Results

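CD8 sorted thymocytes are described here by their open chromatin. They were the cells of the single-cell ATAC-seq table whose labels name the CD8 sort and that held a total count of 1000 or more over all peaks, which kept 91 of 116 such cells out of 1988 cells in the table. They were set against 116 of 125 double-positive (DP, CD4+CD8+) and 175 of 182 double-negative (DN, CD4-CD8-) sorted thymocytes filtered in the same way, and 96 of 119 CD4 sorted cells served as a further reference. All came from the thymus of untreated male C57BL/6 mice labelled as 7 weeks of age, with no genetic change named. The gate of the CD8 sort and the number of mice are not given in the sources used here, and no label ties a cell to an animal, so each sort is 1 sample. The differences below therefore have no replicate check, no test was run, and every interval (95%, exact) covers counting error only.

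Single-cell ATAC-seq cuts DNA where chromatin is accessible, and a peak counted in a cell marks a stretch that was open there. In the thymus, T cell precursors pass from the DN stage, without either coreceptor, to the DP stage, where the T cell receptor alpha chain is rearranged by the Rag recombinase. DP cells that recognise peptide on MHC class I keep CD8, switch off Cd4 through Runx3 and become CD8 single-positive cells, which then acquire the receptors for survival and for leaving the thymus. CD8 is also present before the DP stage, on immature single-positive cells, so a sort on CD8 does not define a stage by itself.

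The 91 CD8 cells held 1005 to 17519 counts each, with a median of 5186, and had a median of 2632 open peaks, against 1997.5 in DP cells and 1969 in DN cells. Their labels carry numbers from 4000 in 77 cells and from 31000 in 14 cells, and the latter were shallower, with a median total of 1519 counts against 5774. What these numbers stand for is not stated. Cells of both number series were present in all 4 sorts, but 122 of the 175 DN cells and 31 of the 116 DP cells came from other series that held no CD8 cell. The pooled ratios rest on these cells too. For the described marker loci the ratio within the series from 4000 is given beside the main one. The same is done where a named locus lost its call or moved by over 1.5 times. Ratios of single peaks are pooled over the series. Levels are rates, the number of cell-by-peak openings per 10000 openings of that sort, each peak counted at most once per cell. A gene locus is the sum of the peaks whose nearest protein-coding transcription start is that gene's, within 100 kb. Peaks are called by a ratio of 2 or more and loci by a ratio of 1.5 or more in either direction. All coordinates are GRCm38.

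The peaks shown first lie between Cd8b1 and Cd8a, the neighbouring genes of the CD8 beta and alpha chains on chromosome 6, and upstream of Runx3 on chromosome 4. The central 300 bases of 7 of them are printed here, while the peaks at the Cd8b1 start and in its intron are given by their values only. In 6 of these peaks the CD8 rate was 2 times or more above or below that of DN or DP cells, and the Cd8b1 peak at 18594 bp was so only against CD4 cells (ratio 6.06). They come from the RefSeq GRCm38.p6 genome, plus strand, 5′ to 3′, with a match to any searched motif on either strand in capitals. The Cd8 peaks are intergenic, downstream of Cd8b1 or upstream of Cd8a, and the Runx3 peaks are intergenic or at its start. The searched letters were TGTGGTT for Runx factors and AGGAAGT for Ets factors, then CTTTGAT for Tcf/Lef and CAGCTG for E proteins, then GGGTGTG for Klf and AGGTGTG for T-box factors, then TGANTCA for AP-1 and AGATAA for Gata factors, and GCGTGGG for Egr factors and TGGAAAA for NFAT. CAGCTG and TGANTCA read the same on both strands, and the Klf and T-box letters differ in their first base only. In all 15094 described peaks, Runx letters were found in 12.7% of central 300-base windows, E protein letters in 22.9% and T-box letters in 6.7%.

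Cd8b1, centre 18594 bp from its start, chr6:71341232-71341531: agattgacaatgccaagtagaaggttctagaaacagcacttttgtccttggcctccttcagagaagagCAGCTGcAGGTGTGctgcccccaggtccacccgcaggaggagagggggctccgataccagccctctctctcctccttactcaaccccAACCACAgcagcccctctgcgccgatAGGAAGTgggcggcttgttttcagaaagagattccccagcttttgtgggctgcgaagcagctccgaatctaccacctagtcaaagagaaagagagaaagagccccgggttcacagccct

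Cd8b1, centre 22829 bp from its start, chr6:71345467-71345766: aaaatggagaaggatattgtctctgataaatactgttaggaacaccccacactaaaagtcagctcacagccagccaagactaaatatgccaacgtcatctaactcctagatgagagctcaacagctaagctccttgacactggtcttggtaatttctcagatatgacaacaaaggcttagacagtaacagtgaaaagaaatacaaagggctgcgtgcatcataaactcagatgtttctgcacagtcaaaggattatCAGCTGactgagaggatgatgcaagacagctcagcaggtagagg

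Cd8a, centre -19547 bp from its start, chr6:71353730-71354029: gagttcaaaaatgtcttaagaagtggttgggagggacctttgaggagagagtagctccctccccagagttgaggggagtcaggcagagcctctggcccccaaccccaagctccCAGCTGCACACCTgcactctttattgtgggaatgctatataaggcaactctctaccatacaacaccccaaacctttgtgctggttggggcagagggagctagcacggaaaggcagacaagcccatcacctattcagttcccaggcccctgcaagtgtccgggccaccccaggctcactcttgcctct

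Cd8a, centre -12537 bp from its start, chr6:71360740-71361039: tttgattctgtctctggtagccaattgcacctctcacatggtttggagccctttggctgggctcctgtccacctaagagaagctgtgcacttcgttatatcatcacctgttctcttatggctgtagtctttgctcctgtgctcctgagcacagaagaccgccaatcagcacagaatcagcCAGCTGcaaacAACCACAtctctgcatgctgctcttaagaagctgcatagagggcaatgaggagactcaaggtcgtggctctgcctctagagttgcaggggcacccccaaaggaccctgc

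Cd8a, centre -3842 bp from its start, chr6:71369435-71369734: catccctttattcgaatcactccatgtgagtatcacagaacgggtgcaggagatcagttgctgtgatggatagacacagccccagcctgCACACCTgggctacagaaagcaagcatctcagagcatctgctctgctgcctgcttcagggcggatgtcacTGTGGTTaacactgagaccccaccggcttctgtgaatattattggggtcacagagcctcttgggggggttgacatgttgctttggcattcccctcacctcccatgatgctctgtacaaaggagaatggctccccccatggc

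Runx3, centre -21987 bp from its start, chr4:135098515-135098814: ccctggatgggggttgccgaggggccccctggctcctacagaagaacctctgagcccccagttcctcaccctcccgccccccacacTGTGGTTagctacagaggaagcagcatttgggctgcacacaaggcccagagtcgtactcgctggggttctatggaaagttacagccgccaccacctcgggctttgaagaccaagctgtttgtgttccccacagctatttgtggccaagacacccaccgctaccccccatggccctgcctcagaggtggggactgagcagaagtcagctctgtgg

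Runx3, centre -192 bp from its start, chr4:135120310-135120609: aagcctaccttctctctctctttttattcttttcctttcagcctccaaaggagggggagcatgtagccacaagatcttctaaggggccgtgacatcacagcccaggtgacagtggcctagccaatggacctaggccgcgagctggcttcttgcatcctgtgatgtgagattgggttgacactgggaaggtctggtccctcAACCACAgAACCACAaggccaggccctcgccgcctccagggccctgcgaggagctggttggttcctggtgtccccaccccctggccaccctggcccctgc

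Runx letters stood in the Cd8b1 peak at 18594 bp, in the Cd8a peaks at -12537 bp and -3842 bp and in both Runx3 peaks, with matches starting at positions 201 and 209 of the printed window in the peak at the Runx3 start. E protein letters stood in both Cd8b1 peaks and in the Cd8a peaks at -19547 bp and -12537 bp. T-box letters were in the Cd8b1 peak at 18594 bp and in the Cd8a peaks at -19547 bp and -3842 bp. A match describes the letters in the window and is not evidence of binding.

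At its own coreceptor genes the CD8 sort was more open than DN and CD4 cells, and less open than or level with DP cells. The Cd8a locus had 59 counts in CD8 cells, a rate of 2.45 (1.86 to 3.15), against 3.66 (2.92 to 4.52) in DP, 1.12 (0.851 to 1.45) in DN and 1.07 (0.717 to 1.54) in CD4 cells. The ratio to DN was 2.18 (1.49 to 3.19) and the ratio to DP was 0.67 (0.471 to 0.943). The Cd8b1 locus had a rate of 2.53 (1.93 to 3.25) in CD8 cells, 3.53 (2.81 to 4.38) in DP, 1.06 (0.799 to 1.39) in DN and 0.665 (0.394 to 1.05) in CD4 cells. Its ratio to DN was 2.37 (1.62 to 3.49), and its ratio to DP, 0.718 (0.506 to 1.01), had an interval that held 1. Within the series from 4000 Cd8a had ratios of 1.98 to DN and 0.623 to DP, and Cd8b1 had 1.57 (0.923 to 2.93) and 0.763. In the 14 CD8 cells numbered from 31000 Cd8a ran the other way against DP, with 5 counts against 4 (ratio 2.06, 0.454 to 10.6), and Cd8b1 had 1 count against 7 (0.337, 0.00535 to 1.88).

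Single peaks of the region differed from this sum. The peak at the Cd8b1 start, centred at -96 bp, was open in 28 of 91 CD8 cells (30.8%, 21.5 to 41.3), 23 of 116 DP, 21 of 175 DN and 14 of 96 CD4 cells. The intergenic peak 22829 bp from the Cd8b1 start was open in 9 of 91 CD8 cells (9.89%), 6 of 116 DP cells and 2 of 175 DN cells, a rate ratio of 7.99 to DN. The peak at -19547 bp from Cd8a was open in 18 of 91 CD8 cells (19.8%), 16 of 116 DP and 10 of 175 DN cells, a ratio of 1.08 to DP and 3.71 to DN. The peak at -3842 bp was open in 23 of 91 CD8 cells (25.3%), 31 of 116 DP and 17 of 175 DN cells. The CD8 sort thus exceeded DN cells at each of these 4 peaks, while its order against DP cells varied. Within the series from 4000 these peaks, in the order given, were open in 28, 9, 18 and 21 of 77 CD8 cells. In DN cells of that series they were open in 4, 1, 2 and 6 of 30, so the comparison there rests on few DN openings.

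At other peaks of the region the CD8 rate was below that of DP cells. The peak at -12537 bp from Cd8a was open in 5 of 91 CD8 cells (5.49%, 1.81 to 12.4) against 18 of 116 DP cells (15.5%), a rate ratio of 0.286, and in 6 of 175 DN cells. The intronic Cd8b1 peak at 10475 bp was open in 9 of 91 CD8 cells (9.89%) and 19 of 116 DP cells, a rate ratio of 0.469, in 16 of 175 DN cells (9.14%) and in 0 of 96 CD4 cells. The peak at 18594 bp from the Cd8b1 start was open in 13 of 91 CD8 cells (14.3%), 21 of 116 DP cells (18.1%), with intervals that overlapped, and in 14 of 175 DN and 2 of 96 CD4 cells.

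**Figure D1:**
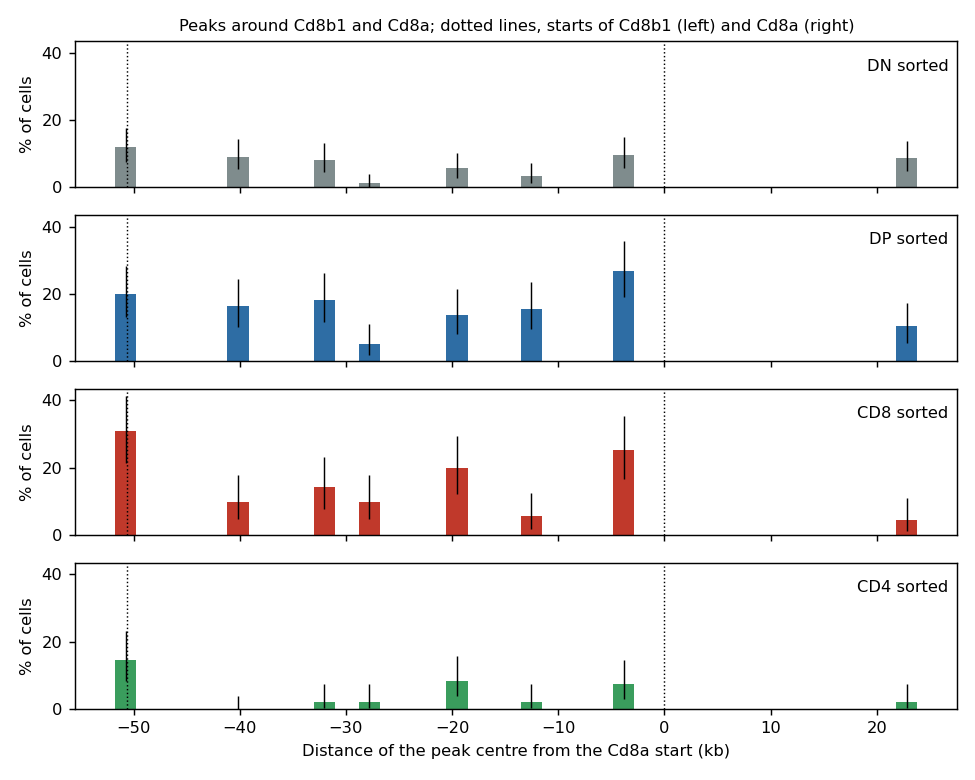
Percent of cells (y axis, with 95% exact binomial intervals) in which each of 8 described peaks around Cd8b1 and Cd8a was open, by distance of the peak centre from the Cd8a start in kb (x axis), in DN, DP, CD8 and CD4 sorted cells. CD8 cells reached 30.8% at the Cd8b1 start and 25.3% at the peak before Cd8a, while every CD4 bar is at or under 14.6%.

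Runx3, the factor that silences Cd4 in CD8 lineage cells, separated the CD8 sort from DP and CD4 cells and not from DN cells. Its locus had 85 counts in CD8 cells, a rate of 3.52 (2.81 to 4.36), against 1.89 in DP, 1.96 in CD4 and 3.37 in DN cells. The ratio was 1.85 (1.28 to 2.74) to DP, 1.79 (1.26 to 2.59) to CD4 and 1.05 (0.797 to 1.36) to DN, and within the series from 4000 it was 1.57 to DP and 1.2 to DN. The peak at -21987 bp was open in 16 of 91 CD8 cells (17.6%), 4 of 116 DP, 13 of 175 DN and 4 of 96 CD4 cells, ratios of 3.53 to DP and 2.57 to DN. Within the series from 4000 it was open in 15 of 77 CD8, 4 of 63 DP and 3 of 30 DN cells. The peak at the start was open in 25 of 91 CD8 cells (27.5%), 10 of 116 DP and 29 of 175 DN cells. The peak at -40125 bp was instead highest in DN cells, at 42 of 175 against 15 of 91 CD8 cells. Within the series from 4000 this peak was open in 6 of 30 DN and 14 of 77 CD8 cells. Nkg7, a granule protein of cytotoxic cells, had 3 counts in CD8 cells, 0 in DP, 11 in DN and 2 in CD4 cells, and fell below the level at which loci are described.

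The depth of the cells weighs on shares such as these. With each cell thinned to 500 open peaks, which left out 2 DP cells, a count at Cd8a remained in 9 of 91 CD8 cells (9.89%), 26 of 114 DP cells (22.8%) and 2 of 175 DN cells (1.14%). Without thinning these shares were 42.9%, 52.6% and 22.3%. At Runx3 the thinned shares were 16.5% in CD8, 7.02% in DP and 17.1% in DN cells. At Cd8a or Cd8b1 together, 57 of 91 CD8 cells (62.6%, 51.9 to 72.6) had at least 1 open peak before thinning.

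Across the genome 2848 gene loci had a mean rate of 1 or more over the CD8, DN and DP sorts and are described. Relative to DP cells 282 loci (9.9%) were higher and 322 (11.3%) lower in CD8 cells, and relative to DN cells 301 (10.6%) were higher and 107 (3.76%) lower. The median log2 ratio of all loci was -0.05 to DP and 0.11 to DN. Higher loci were 46.7% of the calls against DP, and 68.2% when rates were scaled by counts near starts, which moved the medians to 0.08 and 0.15. Both comparisons share the CD8 cells. A total of 78 loci (2.74%) were higher than both other sorts and 52 (1.83%) were lower than both.

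**Figure D2:**
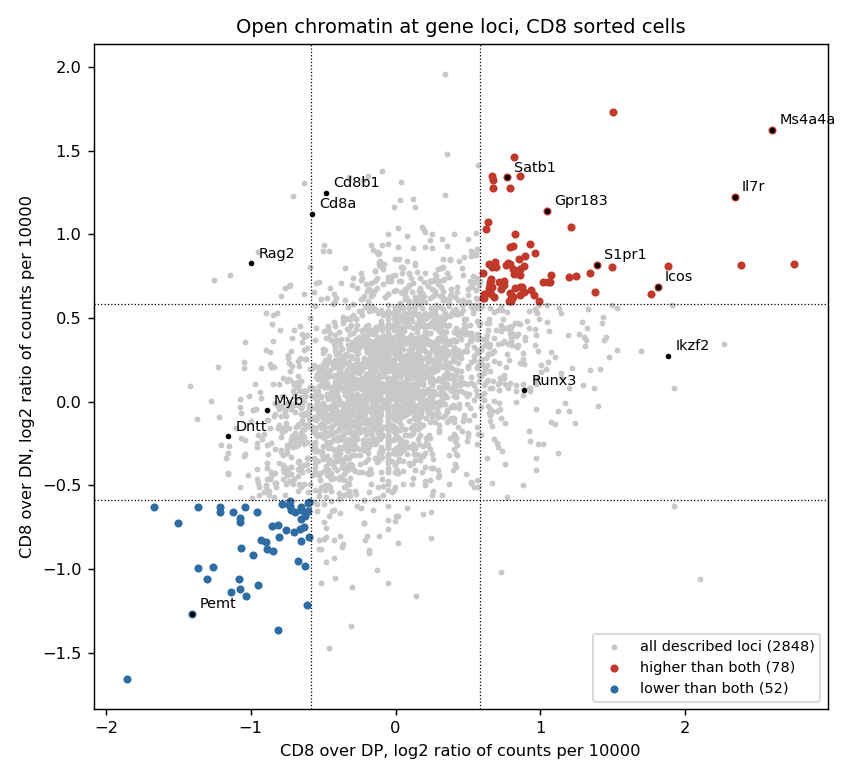
Log2 ratio of the rate in CD8 cells to DP cells (x axis) and to DN cells (y axis) for 2848 gene loci, with dotted lines at 1.5 times either way. Red marks the 78 loci higher than both and blue the 52 lower than both; Cd8a, Cd8b1 and Rag2 lie in the upper left, above DN and below DP, and Ms4a4a and Il7r at the far upper right.

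The loci higher in CD8 cells than in both other sorts included receptors of mature T cells. Ms4a4a, a member of a family of four-span membrane proteins, had 53 counts and a rate of 2.2 in CD8 cells (1.65 to 2.87), 0.344 in DP and 0.709 in DN cells, ratios of 6.06 (3.01 to 15.5) and 3.08 (1.99 to 4.87), though with counts not limited to 1 per cell and peak the ratio to DN turned to 0.564. Il7r, the receptor chain for the survival cytokine IL-7, had a rate of 2.49 (1.9 to 3.2) against 0.474 (0.236 to 0.847) in DP and 1.06 (0.799 to 1.39) in DN cells, ratios of 5.07 (2.74 to 11.1) and 2.34 (1.59 to 3.44). S1pr1, the sphingosine receptor through which T cells leave the thymus, had ratios of 2.62 (1.7 to 4.24) to DP and 1.76 (1.28 to 2.41) to DN. CD4 cells were close to CD8 cells at these loci, at rates of 1.99 for Ms4a4a, 2.84 for Il7r and 3.07 for S1pr1, against 3.19 for S1pr1 in CD8 cells. These genes were therefore not open in the CD8 sort alone. Within the series from 4000 the ratios to DP and DN were 4.85 and 2.75 for Ms4a4a, 3.78 and 3.18 for Il7r, and 2.09 and 2.47 for S1pr1.

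The peaks behind these sums could be placed. An intronic Il7r peak 1795 bp from the start was open in 11 of 91 CD8 cells (12.1%, 6.19 to 20.6), in 0 of 116 DP cells and in 11 of 175 DN cells, which makes the rate at least 3.53 times that of DP cells with 3 counts as the floor. Upstream of Il7r, the peak at -44887 bp was open in 17 of 91 CD8, 4 of 116 DP, 13 of 175 DN and 31 of 96 CD4 cells. The peak at the S1pr1 start was open in 13 of 91 CD8 cells (14.3%), 2 of 116 DP and 5 of 175 DN cells, and the intergenic peak 32187 bp from it in 27 of 91 (29.7%), 9 of 116 and 22 of 175 cells.

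Chromatin and lineage regulators were also among the named loci. Satb1, an organiser of T cell chromatin, had the most counts, 183 in CD8 cells and a rate of 7.59 (6.53 to 8.77) against 4.43 in DP and 2.99 in DN cells, with ratios of 1.57 and 2.12 within the series from 4000. Tox, a factor needed for the CD4 lineage, had a rate of 2.16 (1.61 to 2.83) in CD8 cells, 1.12 in both DP and DN cells and 2.11 in CD4 cells. Gpr183, a receptor for oxysterols that guides cell positioning, had ratios of 2.07 (1.33 to 3.33) and 2.2 (1.53 to 3.18). The other loci named by the same order were Rubcnl, Fut8, Mrpl35, Thnsl1, Smchd1, Slc15a1, Igf2r, Sec11c and Adipoq, where the smaller of the ratios to DP and DN ran from 1.71 to 2.06. Within the series from 4000 Sec11c over DP was 1.39, and over DN Igf2r was 1.31 and Adipoq 1.49. Mrpl35 over DP turned to 0.518 (3 counts against 6, 0.0779 to 2.25) within 20 kb and Adipoq over DN to 0.792 after thinning. Each named locus was on the same side of 1 in both number series, as the order of naming required, a side that often rests on few counts in the series from 31000. Among all loci called against both sorts, 52 of 78 higher and 24 of 52 lower ones met this condition.

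Loci lower in CD8 cells than in both sorts are described next. Pemt, an enzyme of phosphatidylcholine synthesis, had 15 counts and a rate of 0.622 (0.348 to 1.03) against 1.68 in DP and 1.54 in DN cells. Pik3cg, the catalytic subunit of a PI3 kinase of leukocytes, had a rate of 0.953 against 2.02 and 1.77. Gse1, Jpt1, Sept9, Elf2, Ostc, Esco1, Ncln and Nfe2l1 followed, where the larger of the ratios ran from 0.475 to 0.6. Ncln over DP was 0.691 within the series from 4000. Esco1 over DN turned to 1.23 within 20 kb and Nfe2l1 over DN to 1.2 after thinning.

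In the comparison with DP on its own, the highest further loci included Nt5e, the ecto-nucleotidase CD73, with a rate of 2.11 against 0.387 (ratio 5.22, 2.66 to 12.6), and Kcnj15, a potassium channel (ratio 4.81, and 2.98 within the series from 4000). The lowest were 6720489N17Rik, Tmem184b and Txnrd2, with ratios of 0.277, 0.314 and 0.374. In that with DN on its own, Gm14085, Sgpp1 and Tdrp were the highest further loci, with ratios of 3.88, 2.79 and 2.66, and Larp1, Ptpre and AL607142.1 the lowest, with 0.432, 0.447 and 0.472. Within the series from 4000 the order of the first 3 changed, with 2.62 for Gm14085, 1.71 for Sgpp1 and 4.27 for Tdrp.

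At Cd4 itself, the gene that Runx3 silences in this lineage, openness was not lower in the CD8 sort. The locus had 33 counts and a rate of 1.37 (0.942 to 1.92) in CD8 cells, 0.947 in DP, 0.749 in DN and 0.923 in CD4 cells. Its intronic peak 2069 bp from the start was open in 25 of 91 CD8 cells (27.5%), 16 of 116 DP, 25 of 175 DN and 25 of 96 CD4 cells, and the intronic peak at 8668 bp in 7 of 91 CD8 cells and 0 of 96 CD4 cells.

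**Figure D3:**
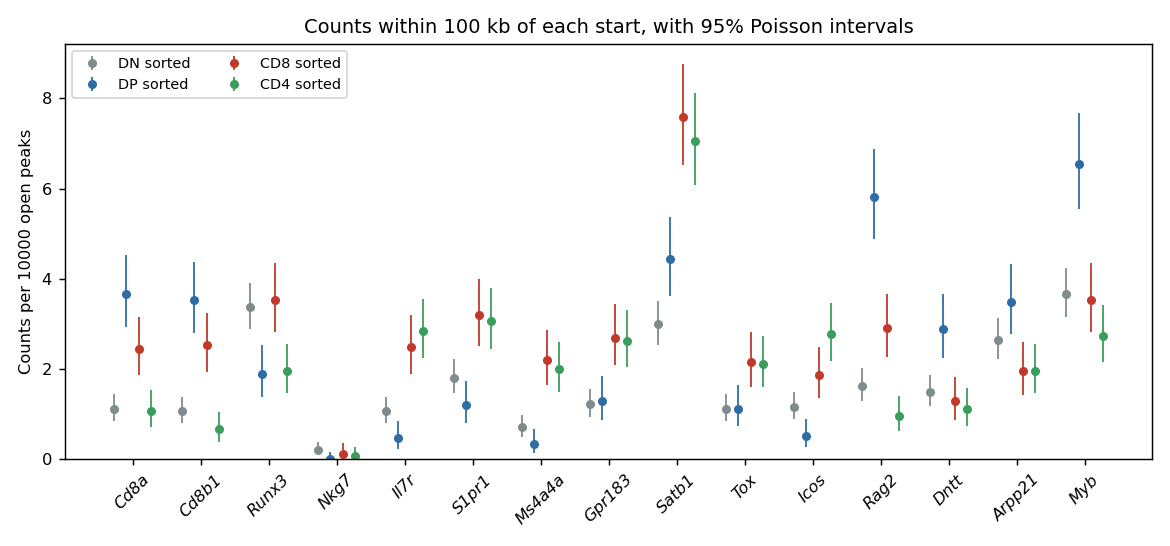
Rate of counts within 100 kb of the start of 15 genes (y axis, counts per 10000 open peaks, with 95% exact Poisson intervals) in DN, DP, CD8 and CD4 sorted cells. CD8 cells share the high levels of CD4 cells at Il7r, S1pr1, Ms4a4a, Gpr183, Satb1 and Tox, and lie between DP and CD4 cells at Rag2.

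By gene list, the mature and egress list had 9 of 20 genes at the described level, of which 5 were higher than DP cells (background 9.9%) and 0 lower, with a median log2 ratio of 0.71 beside -0.05 over all loci. Besides Il7r and S1pr1 these included Klf2, the factor that turns on S1pr1 (ratio 1.64, 1.04 to 2.65), and Stat4, a signal transducer of cytokine receptors (1.63, 0.938 to 2.98). Stat4 lost its call within the series from 4000, where its ratio was 1.14 to DP and 0.614 to DN. Klf2 turned to 0.562 in cells numbered from 31000 (1 count against 4, 0.00856 to 4.26), 0.49 after thinning and 0.881 within 20 kb. Against DN cells 4 of 9 were higher and 0 lower (background 10.6% and 3.76%). The summed rate of the list was 27.8 (25.7 to 30) in CD8 cells, 18.1 (16.4 to 19.9) in DP and 19.5 (18.3 to 20.8) in DN cells. CD4 cells had 29.2 (27.2 to 31.4), so this height was shared with the CD4 sort.

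The list of DP genes ran the other way against DP cells. Of 13 described genes 5 were lower (background 11.3%) and 0 higher, with a median log2 ratio of -0.51. Against DN cells 3 of 13 were higher (background 10.6%) and 0 lower (background 3.76%). Rag2, a subunit of the recombinase, had a rate of 2.9 (2.26 to 3.67) in CD8 cells against 5.81 (4.87 to 6.88) in DP cells, and remained above DN (1.64) and CD4 cells (0.96). Its start was open in 12 of 91 CD8 cells (13.2%), 22 of 116 DP, 6 of 175 DN and 0 of 96 CD4 cells, while a peak over a Rag2 exon was open in 10 of 91 CD8 and 3 of 116 DP cells. Dntt, which adds bases at receptor joints, had a ratio of 0.449 to DP, and Arpp21 and Endou had 0.561 and 0.539, of which Arpp21 had 0.671 within the series from 4000. Myb, on the DN and progenitor list, had 0.54 (0.408 to 0.707) and was the 1 lower gene of 8 described there, though it turned to 1.25 within 20 kb.

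The 22 genes of the CD8 and cytotoxic list were mostly sparse. A total of 8 were described, of which 3 were higher than DP (background 9.9%), namely Runx3, the chemokine Xcl1 at 1.9 and the death ligand Fasl at 1.72. Of these, Runx3 was higher than in CD4 cells. Xcl1 and Fasl were not, with rates of 1.49 and 4.6 in CD8 against 2.14 and 5.69 in CD4 cells. Their ratios to CD4 were 0.7 (0.446 to 1.07) and 0.81 (0.628 to 1.04). Against DN 2 were higher (background 10.6%), Cd8a and Cd8b1. The other 14 had few counts, and 13 of them had a higher rate in CD8 than in DP cells, 8 than in DN and 9 than in CD4 cells, beside 46.6%, 38.1% and 44.9% of all 12275 loci under the described level that held a count. The granule genes Gzmk, Gzma, Gzmm and Prf1 had 1, 7, 4 and 20 counts in CD8 cells and 0, 30, 2 and 26 in DN cells, a lower rate than DN for Gzma (0.29 against 0.591). Itgae, the integrin chain CD103, had the most, with 27 counts in CD8, 7 in DP, 34 in DN and 12 in CD4 cells, and Il2rb, a receptor chain for IL-2 and IL-15, had 19, 3, 31 and 25. On the CD4 lineage list 2 of 6 described genes were higher than DP (background 9.9%), the costimulator Icos at 3.5 (1.88 to 7.5) and Tox, and Socs3 was lower at 0.637 (background 11.3%). Against DN 3 were higher (background 10.6%) and 1 was lower (background 3.76%), while Zbtb7b, the factor that fixes the CD4 fate, had 7 counts in CD8 cells and 24 in CD4 cells. Selection genes had 2 of 10 higher than DP (background 9.9%), Nfkb1 at 1.81 and Cd28 at 1.64 (1.47 within the series from 4000), and 3 of 10 higher than DN (background 10.6%). On the regulatory T list 2 of 4 described genes were higher than DP (background 9.9%), Ikzf2 (3.69, 2.08 to 7.37) and Ctla4 (1.73, 1.15 to 2.68, and 1.34 within the series from 4000), and 0 of 4 higher than DN (background 10.6%), and Foxp3 had 0 counts in CD8 and DP cells.

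Markers of other cells were read as summed rates. These depend on the number of genes and peaks in a list, so they give no measure of purity. The summed rates in CD8, DP and DN cells were 2.9, 2.2 and 2.78 for B cells (6 of 8 genes with peaks, Cd79a at 0 in CD8 cells), 2.53, 2.8 and 3.59 for myeloid and antigen-presenting cells (8 of 8), 0.829, 1.08 and 1.34 for epithelium (4 of 5, Psmb11 and Krt8 at 0), and 0.207, 0.56 and 0.473 for erythroid cells (3 of 4, with Klf1 at 2, 13 and 24 counts). For innate lymphocytes they were 3.23, 3.31 and 3.74, and for gamma delta T cells 1.41, 1.81 and 2.29. At the T cell receptor alpha and delta locus on chromosome 14, the Traj segments had a rate of 0.87 (21 counts) in CD8 cells, 1.55 in DP, 0.611 in DN and 1.37 in CD4 cells, and the delta segments had 6 counts in CD8 cells. Rearrangement cuts out DNA of this locus, and its part in these counts was not tested.

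CD8 cells were spread widely between DP and CD4 cells. Peaks were chosen on DP and CD4 cells numbered from 4000 only, 4946 higher in CD4 and 2789 higher in DP cells, and each cell was given the share of CD4-side counts among its counts in both sets. CD8 cells ran from 29.6% to 66.7% with a median of 53.9% and quartiles of 38.8% and 59.3%. DP cells that did not choose the peaks had medians of 31.5% (numbers from 3000) and 33% (from 31000), and CD4 cells from 31000 had 61.7%. DN cells had a median of 47.7%, so a middle position is not a measure of maturity.

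The CD4 cells that chose the peaks ran from 63.0% to 86.5%, and the highest CD8 cell of the same series was at 64.8%. The DP cells that chose the peaks had a median of 16.4% (quartiles 14.9% and 18.2%), and the lowest CD8 cell of the same series was at 29.6%. Among all CD8 cells, a total of 9 cells were under 34%, 24 from 34% to 44%, 13 from 44% to 54%, 42 from 54% to 64% and 3 at 64% or more. The highest DP cell was at 41.6% in numbers from 3000, 44.3% in those from 4000 and 61.9% in those from 31000. The value from 3000 was taken as the limit. At or below this limit were 27 of 91 CD8 cells (29.7%, 20.5 to 40.2), 25 of them numbered from 4000 and 2 from 31000. These cells were spread over the label numbers, with 7 of 30, 11 of 31 and 7 of 16 in 3 successive blocks of the series from 4000. The median number of open peaks was 2336 in them and 2820.5 in the other 64, and 12 cells lay within 3 points of the limit. The limit is a range and not a cell type, and it depends on depth. After thinning to 500 open peaks 83.5% of CD8 cells were at or below the highest DP cell from 3000.

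**Figure D4:**
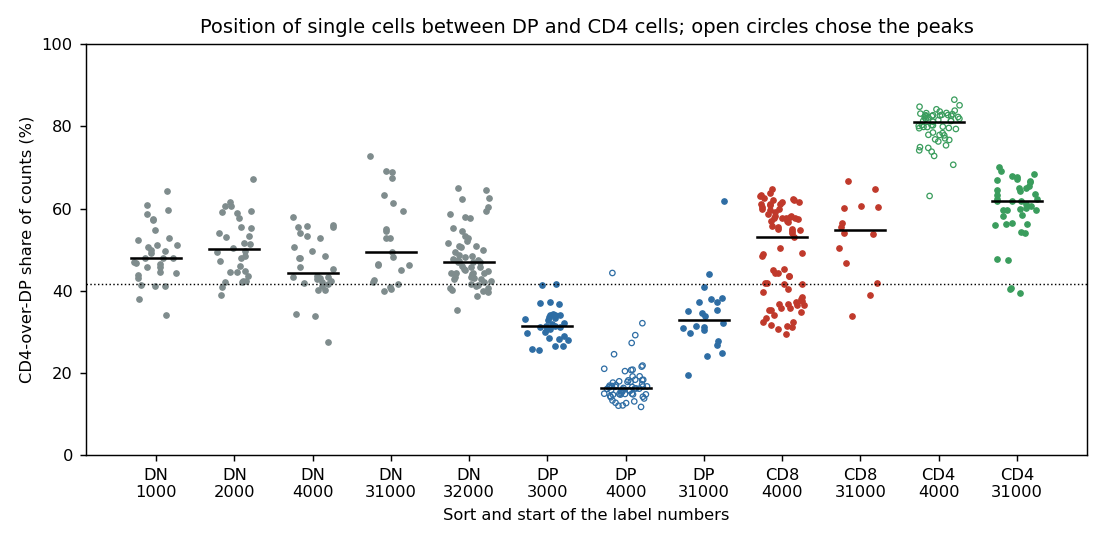
Share of CD4-over-DP counts per cell in percent (y axis) by sort and start of the label numbers (x axis); each circle is a cell, bars are medians, open circles are the cells that chose the peaks, and the dotted line is the highest DP cell from 3000 at 41.6%. CD8 cells fall on both sides of the line, while DN cells run from 27.6% to 72.7%, with medians between those of DP and CD4 cells.

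Peaks that took no part in this order were read in the same cells. This reading was added after the spread was seen and is a description. Such peaks missed the cut-offs of the choice but can still differ between DP and CD4 cells. On them Rag2 had rates of 1.68 in DP and 0.332 in CD4 cells, and Il7r 0.258 and 0.702. The values below are therefore not independent of the split into lower and upper cells. On the peaks that took no part, Rag2 had 11 counts and a rate of 1.65 (0.825 to 2.96) in the 27 lower cells. It had 6 counts and 0.343 (0.126 to 0.748) in the 64 upper cells. Il7r had 1 count (0.15, 0.0038 to 0.837) in the lower and 21 counts (1.2, 0.744 to 1.84) in the upper cells, and S1pr1 had 0.751 (0.244 to 1.75) and 1.2 (0.744 to 1.84). Runx3 had rates of 2.1 (1.15 to 3.53) and 3.84 (2.97 to 4.87), and Cd8a 1.5 (0.72 to 2.76) and 0.973 (0.567 to 1.56). The intervals of Il7r, S1pr1, Runx3 and Cd8a overlapped between lower and upper cells, as did those of Klf2, Ccr7, Tox and Gpr183. Over the whole lists, the median rate per cell was 22.7 in lower and 17.3 in upper cells for DP genes (quartiles 15.6 to 27 and 11.5 to 25.2) and 11.5 and 16.7 for mature and egress genes (8.76 to 17.8 and 13.3 to 23.6), with 19.5 and 12.2 in DP cells. For CD8 and cytotoxic genes it was 9.95 and 16.5 (6.56 to 13 and 11.4 to 21.1), with 7.99 in DP cells. For DN and progenitor genes it was 21.5 and 16.7 (15.3 to 23.2 and 10.4 to 22), with 15.1 in both DP and DN cells. The quartile ranges of lower and upper cells overlapped on each of these lists. Il2ra, the IL-2 receptor alpha chain, present on part of the DN cells, had rates of 2.1 (1.15 to 3.53) and 0.916 (0.524 to 1.49) on these peaks, against 0.904 in DP and 0.709 in DN cells, while Notch1, the receptor that drives the DN stage, ran the other way at 0.601 (0.164 to 1.54) and 1.6 (1.07 to 2.32). Among markers of other cells the epithelium list had 10 counts (1.5, 0.72 to 2.76) in lower and 7 (0.401, 0.161 to 0.826) in upper cells, with intervals that overlapped as for Il2ra and Notch1, against 0.775 in DP cells, and its part in these values was not tested. The B cell, myeloid and innate lists had rates of 2.1 and 2.12, 2.25 and 2.29, and 3.15 and 3.21.

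Among single peaks 15094 were open in a mean of 5% or more of cells over the sorts. CD8 cells were higher than DP at 1907 (12.6%) and lower at 1569 (10.4%), and higher than DN at 1576 (10.4%) and lower at 1001 (6.63%). Against both, 558 (3.7%) were higher and 551 (3.65%) lower. Of these, 369 higher and 185 lower peaks were on the same side of 1 in both number series. The higher peaks were mostly away from promoters: 87 of 558 (15.6%) were centred within 1 kb of a start, against 45.7% of all described and 45% of the lower peaks. Of the higher peaks 52.5% lay 10 to 100 kb from a start, against 32.5% of the described. Over all counts, 41.4% (41.2 to 41.6) of openings in CD8 cells were within 1 kb of a start, against 45.3% in DP, 42.4% in DN and 41% in CD4 cells, with quartiles over CD8 cells of 39.6% and 43.8%.

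The 10 highest peaks against both sorts moved with the label numbers as well as with the sort. All 10 were open in at most 2.86% of DN and 2.59% of DP cells. They reached the mean of 5% only through their CD8 share, so their rank and ratios follow in part from that choice. They included peaks in Mbp (17 of 91 CD8 cells, 1 of 116 DP and 2 of 175 DN cells), Hpca (16, 1 and 2), Ncdn (13, 1 and 2), Apoe (22, 2 and 5), Calm3 (17, 2 and 3) and Pcsk1n (23, 3 and 2). Mbp codes for a myelin protein and Hpca for a calcium sensor of neurons. In 6 of the 10 the central 300 bases overlapped an exon more than 1 kb from a start, against 9.31% of described peaks and 10.4% of all 558 higher peaks. In CD4 cells, which did not choose them, their summed rate was 8.11 (5.71 to 11.2) in cells numbered from 31000 and 0.622 (0.34 to 1.04) in those from 4000. In CD8 cells it was 15.7 (9.69 to 23.9) and 6.45 (5.45 to 7.58). The part of the number series in their height was not tested. The others were at Samd1, Cep295nl, near Fbxw7 and a distal peak 456576 bp from Rnf144a, open in 18 of 91 CD8, 0 of 116 DP and 5 of 175 DN cells, at least 5.78 times the DP rate. The lowest were near Spag6, Erbin, Haspin, Gch1 and Tnpo1, each open in 0 of 91 CD8 cells (upper bound of the exact interval 3.97%) and in 5 to 10 DP and 13 to 20 DN cells. The Haspin peak lies in an intron of Itgae. Its nearest start is that of Haspin, so it is not in the Itgae sum.

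Peaks chosen in the series numbered from 4000 were then read in the cells numbered from 31000, which had not chosen them. The 588 higher peaks took 2.39% of the counts of the 14 CD8 cells, 1.3% of DP, 1.68% of DN and 2.1% of CD4 counts, with ratios to DP and DN of 1.83 (1.56 to 2.15) and 1.42 (1.23 to 1.63), smaller than the 4.17 and 4.13 of the cells that chose them. The peaks lower there had ratios of 0.717 (0.631 to 0.813) and 0.845 (0.746 to 0.954), beside 0.911 and 1.01 for all described peaks. The 87 higher loci had 1.64 (1.35 to 1.99) and 1.33 (1.12 to 1.58), with 1.6% of CD8 and 1.68% of CD4 counts, beside 0.987 and 1.08 for all described loci. The 107 lower loci had 0.844 (0.692 to 1.02) to DP and 0.917 (0.759 to 1.1) to DN, intervals that held 1. In windows of 500 kb, 33 of 2380 (1.39%) were higher and 34 (1.43%) lower than both sorts. Those holding Mtbp with Sntb1, the Ms4a4 genes and Il7r were among the 5 highest named, at 4.27, 3.66 and 4.38 times the DP rate.

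Letters of E proteins, the factors that restrain DP cells until they are selected, and of Runx factors differed in their share between the higher and lower peaks. CAGCTG was in the central 300 bases of 89 of 558 higher peaks (15.9%, 13 to 19.3), 22.9% of described and 165 of 551 lower peaks (29.9%, 26.1 to 34). Runx letters were in 21.7% (18.3 to 25.3) of higher, 12.7% of described and 10.3% (7.93 to 13.2) of lower peaks. Ets letters were in 24.2% (20.7 to 28) of higher and 17.1% (14 to 20.5) of lower peaks and AP-1 letters in 12.7% (10.1 to 15.8) and 6.72% (4.77 to 9.14), and the intervals of the other 6 motifs overlapped. Since the sets differ in their share of promoters, the peaks over 1 kb from a start were also read alone, a choice made after seeing the data. There CAGCTG was in 71 of 471 higher peaks (15.1%, 12 to 18.6), 29.4% of 8189 described and 122 of 303 lower peaks (40.3%, 34.7 to 46). Runx letters were in 24.8% (21 to 29), 20% and 15.8% (11.9 to 20.4). In 1000 bases of these peaks the Runx shares were 37.8% (33.4 to 42.3) in higher and 30% (24.9 to 35.5) in lower peaks, with intervals that overlapped, and the CAGCTG shares 39.9% (35.5 to 44.5) and 61.1% (55.3 to 66.6). In 300 bases of these peaks the AP-1 letters were in 14.4% of higher, 10.5% of described and 9.9% of lower peaks, with intervals that overlapped between higher and lower peaks, as they did for the other 7 motifs. The median GC content was 48% in higher, 51.3% in described and 52.7% in lower peaks, and its part in these shares was not tested.

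**Figure D5:**
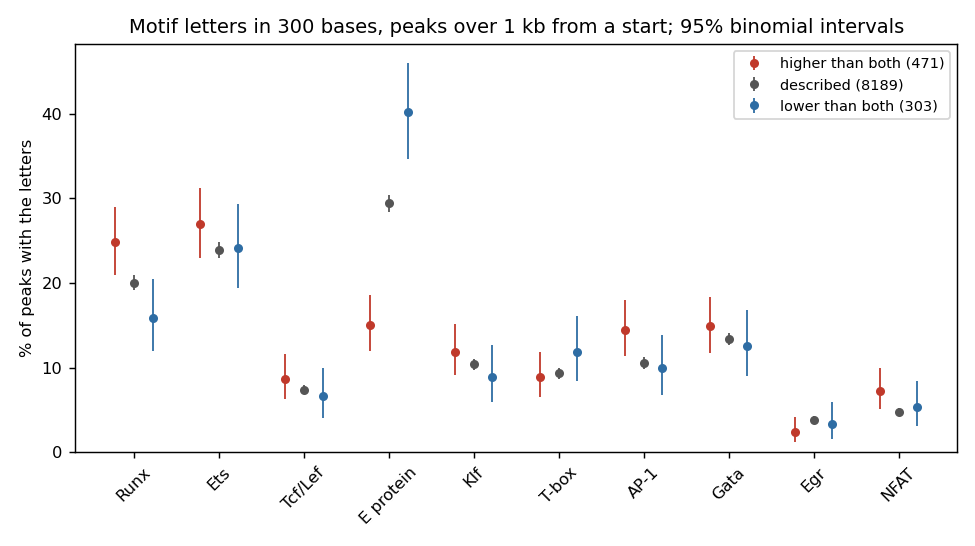
Percent of peaks over 1 kb from a start (y axis, with 95% exact binomial intervals) that hold each motif's letters in the central 300 bases, for 471 peaks higher than both sorts, 8189 described peaks and 303 lower than both. E protein letters stand at 15.1% in higher and 40.3% in lower peaks, and Runx letters at 24.8% and 15.8%.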

How the data were processed

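The data are single-cell ATAC-seq counts of mouse thymocytes. The authors deposited whole-number counts per peak and cell in 1 table of 138317 peaks of 4000 bp. According to their methods, adapters were trimmed, reads were mapped with Bowtie2, duplicates were removed with Picard, and peaks were called with MACS2 on merged cells; versions are not given in the sources used here. The build was taken as GRCm38, since 22.5% of peak centres lay within 2 kb of a GENCODE start and 6.21% after a shift of 100 kb. Cells with counts of 1000 or more were kept; 1446 cell columns of other labels were not used. No cell name was shared between sorts. No doublet caller was run, and leaving out the 5% of cells with the most counts was an alternative.

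Counts were limited to 1 per cell and peak, and 56441 non-overlapping peaks were kept in order of their total over the 4 sorts (the order over all cells had been planned). Rates are per 10000, ratios had 0.5 counts added to each sum, and intervals are exact binomial or Poisson, or the conditional interval of a ratio of counts without that addition. Loci needed a mean rate of 1 and peaks a mean share of 5%. The loci named are the 15 highest and 10 lowest against both sorts by the ratio nearer 1, and the first 3 of 8 in each single comparison, on the same side of 1 in both number series (with the 0.5 counts added), plus listed genes, some of which are not reported here; peaks and windows follow the same order. Scripts were tested on simulated data. Python 3.11.15 with numpy 2.4.6, scipy 1.17.1, pandas 2.3.3 and matplotlib 3.10.9 was used, and the unused single-cell RNA file was not analysed here. The members and gene lists were chosen with earlier results of these data known.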

Additional observations from a re-analysis of the deposited data

How the results depend on the processing

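No paired analysis was possible because each sort is 1 sample and its replicate numbers name cells that do not pair; values within each number series stand in its place. Of 172 values recomputed for the counts, marker loci, positions, promoter share and motifs, 125 stayed within 1.5 times or within the interval, 46 moved and 1 turned, where turned means that a ratio past 1.5 times crossed 1. The latter is Nkg7 over DN, from 0.64 (0.103 to 2.17, 3 counts against 11) to 1.05 with 5 counts added. Cd8a over DP, at 0.67 just short of 1.5 times, also crossed 1, at 2.06 in numbers from 31000. Ratios with 3 counts or fewer on both sides were left out. The cause of the moves was not tested.

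Of the described peaks 3.7% were higher and 3.65% lower than both sorts. These shares were 4.4% and 3.59% with overlapping peaks (1022 and 834 peaks), 2.05% and 0.133% with 5 counts added, 12.1% and 10.2% without a filter, 1.26% and 1.43% with the filter doubled, 13.3% and 13.2% in numbers from 31000, and 2.66% and 4.32% after thinning to 500 open peaks (37 and 60 peaks). Lower peaks were 7.82% in numbers from 4000. Of the described loci 2.74% were higher and 1.83% lower. These shares were 4.83% and 2.86% with counts not limited, 4.19% and 3.15% as a mean over cells, 4.61% and 1.07% scaled by counts near starts, 8.34% and 11.7% without a filter, 3.77% and 0.472% with it doubled (24 and 3 loci), 23.8% and 9.19% in numbers from 31000, 11.1% and 9.45% after thinning, and 1.45% and 1.63% within 20 kb. Lower loci were 0.667% with 5 counts added and 3.7% in numbers from 4000. Leaving out peaks in exons away from starts, an alternative chosen after seeing the data, gave 512 higher and 499 lower peaks and 89 higher and 55 lower loci.

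Cd8a over DN was 3.21 as a mean over cells, 8.08 (10 counts against 2, 2.05 to 90.3) after thinning and at least 4.09 in numbers from 31000, where DN cells had 0 counts and a floor of 3 was used. Cd8b1 over DN was 1.57 in numbers from 4000 and 4.29 after thinning, and Cd8b1 over DP was 0.337 in numbers from 31000. The share of CD8 cells at or below the highest DP cell in numbers from 3000 was 83.5% after thinning. The promoter share was 43.8% with starts within 2 kb. In 1000 bases E protein letters were in 40.7% of higher and 53% of lower peaks, and Runx letters in 34.2% and 21.2%. In peaks over 1 kb from a start, chosen after seeing the data, the lower peaks had 40.3% and 15.8%.

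Of 622 values for 46 named loci, 581 stayed within the interval, 32 moved and 9 turned. Within 20 kb Esco1 over DN was 1.23, and over DP Klf2 was 0.881, Mrpl35 0.518 and Myb 1.25. After thinning Adipoq over DN was 0.792, Nfe2l1 over DN 1.2 and Klf2 over DP 0.49. In numbers from 31000 Klf2 over DP was 0.562. With counts not limited Ms4a4a over DN was 0.564.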
